A study of Homo sapiens with 34 samples.

Results

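The 31 p53 target genes described here are *MDM2* and 30 other genes that carry the tumor suppressor's transcriptional response. They were chosen by name, and their values were read gene by gene in 3 human B-cell acute lymphoblastic leukemia (B-ALL) lines under *CCND3* knockdown and under palbociclib. All 31 were listed in at least 1 of the 6 comparisons and 28 in every one, of 17587 genes listed in at least 1 comparison and 13307 in all 6. The lines were NALM-6, labelled ETV6-PDGFRB, RS4;11, labelled MLL-AF4, and BV-173, labelled BCR-ABL. In each line, lentivirally transduced cells carrying an shRNA against *CCND3* (shCCND3) were set against cells with a scrambled shRNA, and cells kept in 1 µM palbociclib, an inhibitor of the cyclin-dependent kinases CDK4 and CDK6, were set against DMSO. Transduced cells were sorted for the vector's red fluorescent protein and taken on day 4, whereas palbociclib and DMSO cells were taken on day 3 without transduction. The 34 samples formed 12 groups of 3, except for 2 groups of 2, NALM-6 cells with shCCND3 and BV-173 cells in DMSO. Where values of the lines follow each other without names, they stand in the order NALM-6, RS4;11, BV-173. Each lentiviral knockdown group carried a single shRNA sequence, and each genotype was represented by a single cell line.

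The protein p53 is a transcription factor that is kept low by the ubiquitin ligase MDM2 and accumulates after DNA damage and other stresses. It binds response elements in its target genes and raises the transcription of genes that arrest the cell cycle, repair DNA, adjust metabolism or trigger cell death, among them *MDM2* itself, which closes a negative feedback loop. By inducing the CDK inhibitor p21, the product of *CDKN1A*, it also lowers cell cycle genes through the DREAM complex. Many of these targets take other inputs as well, so that the level of a single target is not a reading of p53 activity.

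Short sequences near the gene starts are shown because p53 acts on its targets through a DNA element of a known kind. The RefSeq windows (GRCh38.p14) from 250 bases before to 50 bases after a gene start were searched for the p53 response element consensus, taken as a pair of 10-base arms with a spacer of at most 13 bases. At most 2 mismatches were allowed in all, and the C and G of each arm's core were required. The consensus reads the same on both strands, and no other motif was searched. A window was given for 25 of the 31 genes, and 5 of them, *MDM2*, *DDB2*, *FAS*, *AEN* and *FDXR*, held a match (20.0%), against 3.62% of 27305 genes and 2.93% of 35116 windows overall. No window was given for *FBXO22*, *RRM2B*, *ASCC3*, *PHLDA3*, *TP53INP1* and *CMBL*. In the lines below, capitals mark the match and lower case its flanks, 5′ to 3′ on the gene's strand.
DDB2: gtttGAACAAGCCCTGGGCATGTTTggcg
MDM2: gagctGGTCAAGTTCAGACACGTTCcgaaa
FAS: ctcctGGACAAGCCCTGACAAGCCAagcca
AEN: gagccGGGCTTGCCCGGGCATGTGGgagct
FDXR: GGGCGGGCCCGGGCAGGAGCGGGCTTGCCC

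The *DDB2* sequence, at chr11:47214975-47215003 on the plus strand, was the only one of the 5 with 0 mismatches, and its arms were 1 base apart. Its match began 5 bases after the gene start used, in a noncoding part of an exon of the canonical GENCODE 44 transcript, on which all placements here rest. Other coding transcripts of *DDB2*, *FAS*, *MDM2* and *FDXR* place it differently, and most coding transcripts of *MDM2* start after the match. The *MDM2* sequence, at chr12:68808918-68808947 on the plus strand, lay in intron 1, before the gene's internal start, and held 2 mismatches with no spacer. The *FAS* sequence, at chr10:88991304-88991333 on the plus strand, also lay in intron 1 with 2 mismatches, 103 to 122 bases before the start used. The *AEN* sequence at chr15:88621301-88621330 on the plus strand and the *FDXR* sequence at chr17:74872996-74873025 on the minus strand lay upstream of the canonical transcripts with 2 mismatches each, that of *AEN* within the RefSeq span of the gene, and the arms of the *FDXR* match were 10 bases apart. A match describes letters only. The other 20 genes with a window held no such letters in it, and elements elsewhere in the genes were not searched.

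For each comparison the deposited values are 1 normalised expression level per group, scaled within that pair of groups, so that a level has no spread over samples and the depth per sample is unknown. The change in a line is therefore given as the log2 ratio of the treated over the control level, with a 1.5-fold difference as the mark and with the share of all listed genes past the same mark beside it. Changes shared by the lines were tested with limma on the 3 ratios per gene, with Benjamini-Hochberg adjustment over all genes and a threshold of 0.1. There the 3 lines are the replicates, and the mean ± SD and the p-values measure the spread between lines, not between cultures. "Rose" and "fell" are used only of genes past that test. In these bulk samples, fewer cells of a kind and less RNA per cell cannot be told apart. Ratios of scarce genes were narrow, with an SD over genes at a mean level of 1 or less from 0.111 to 0.412 by comparison, against 0.336 to 0.919 over a level of 100. Whether the authors' fit drew the ratios of scarce genes toward 0 is not given in the sources used here, so such a ratio may understate the difference.

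The knockdown was visible in *CCND3* itself, which was 19498 and 4727 in NALM-6, 16178 and 3353 in RS4;11 and 6619 and 2060 in BV-173 with the scrambled shRNA and shCCND3, respectively. Its mean log2 ratio was -2.00 ± 0.30 (SD, n = 3 lines, limma adjusted p = 0.00788) with shCCND3 and -0.35 ± 0.05 (adjusted p = 0.154) with palbociclib. All 7 B-lineage markers were listed in all comparisons, with a summed level between 27639 and 62764 per group. The T-lineage markers summed to at most 7.70, and the erythroid markers to at most 1.22, with *TRAC* and *HBA1* not listed anywhere. The myeloid markers summed to between 92.8 and 174 in NALM-6, 550.3 and 1168 in RS4;11, and 236 and 586 in BV-173, where they were 236 with DMSO and 586 with palbociclib. The part of these markers in the changes below was not tested.

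With palbociclib, p53 target genes differed from DMSO in both directions. *BTG2*, *TP53INP1* and *TP53I3* were at least 1.5-fold higher in all 3 lines, and *PPM1D* and *DDB2* at least 1.5-fold lower in all 3. *SERTAD1*, *ZMAT3*, *TIGAR*, *SESN1* and *NADSYN1* were higher in 2 lines, and *FBXO22*, *POLH* and *FAS* lower in 2. Of the remaining genes, *SUSD6* was higher in NALM-6 alone, and 7 genes, *CCNG1*, *RPS27L*, *XPC*, *GDF15*, *AEN*, *PHLDA3* and *FDXR*, were lower in NALM-6 alone. *MDM2* and 8 other genes stayed within 1.5-fold wherever they were listed, a count for which the share of all genes was not computed. *SPATA18* was not listed with palbociclib. No gene was past the mark in opposite directions in a pair of lines. For the counts in 2 lines, in NALM-6 alone and in opposite directions, the shares of all genes were not computed either.

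By line, 5 of the 29 listed p53 target genes were at least 1.5-fold higher with palbociclib in NALM-6 and 12 were lower, against 21.4% and 14.9% of all listed genes. In RS4;11, 8 of 30 were higher and 3 lower, beside 16.7% and 15.0% of all genes. In BV-173, 7 of 28 were higher and 4 lower, beside 13.6% and 11.9%. In the order of lines, the median log2 ratio of the p53 target genes was -0.22, 0.07 and 0.03, and that of all listed genes 0.06, 0.01 and 0.04. At a 2-fold mark, 5 were higher and 9 lower in NALM-6 (11.4% and 6.87% of all genes), 4 higher and 1 lower in RS4;11 (7.13% and 7.07%), and 6 higher and 1 lower in BV-173 (4.76% and 4.98%). Over the 3 lines, 7 of 28 genes rose (*BTG2*, *TP53INP1*, *TP53I3*, *NADSYN1*, *TIGAR*, *ZMAT3* and *SERTAD1*) and 7 fell (*DDB2*, *PPM1D*, *POLH*, *AEN*, *FAS*, *FBXO22* and *CCNG1*), when 10.6% of all genes rose and 12.8% fell. The calls of *BTG2*, *TP53INP1*, *TP53I3*, *NADSYN1*, *TIGAR*, *DDB2*, *PPM1D* and *POLH* held on leaving out each line in turn. Without the trend of variance on level in the fit, those of *ZMAT3*, *AEN*, *FAS*, *FBXO22* and *CCNG1* were lost (adjusted p from 0.110 to 0.171), and with a pseudocount of 1 those of *FAS* and *CCNG1* (0.110 and 0.119). Past 1.5-fold in all 3 lines were 4.53% of 13788 genes upward and 5.95% downward.

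With shCCND3 fewer p53 target genes passed 1.5-fold, and 19 of 31 stayed within it in every line in which they were listed. The share of all genes that stayed within it in every line was not computed. In NALM-6, 3 of 30 were higher and 2 lower, beside 7.82% and 8.47% of all genes. In RS4;11, 5 of 31 were higher and 5 lower, beside 9.73% and 9.72%. In BV-173, 1 of 31 was higher and 1 lower, beside 3.32% and 4.78%. At a 2-fold mark, 3 were higher and 1 lower in RS4;11 (3.15% and 3.91% of all genes), and 0 either way in NALM-6 (2.28% and 3.08%) and in BV-173 (0.447% and 0.488%). The medians were -0.01, -0.01 and 0.06, against 0.01, 0.01 and -0.01 for all genes. *POLH* alone was past 1.5-fold in the same direction in all 3 lines, as were 0.584% of 13877 genes upward and 1.75% downward. Over the lines, *ZMAT3*, *NADSYN1* and *SESN1* rose and *POLH* fell, of 30 genes tested, when 4.29% of all genes rose and 6.70% fell. Each of the 3 rises was lost without NALM-6 and without RS4;11, and that of *SESN1* also without BV-173. With a pseudocount of 1 the call of *SESN1* was lost too (adjusted p = 0.111). All 3 were lost without the trend (adjusted p from 0.139 to 0.150), whereas the fall of *POLH* held with each line left out and without the trend.

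**Figure D1:**
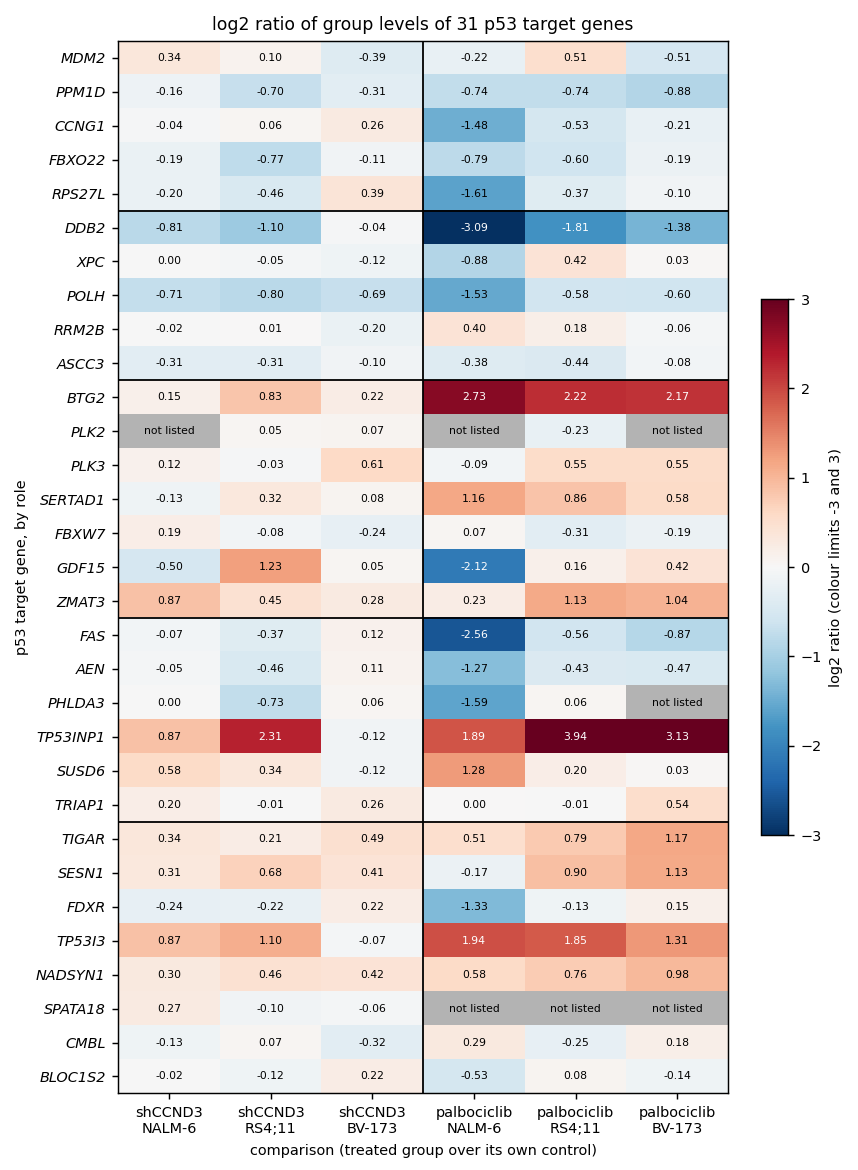
Heatmap of the log2 ratio of treated over control group level for the 31 p53 target genes (rows, ordered by role, with lines between roles) in the 3 lines under shCCND3 and palbociclib (columns), with each value printed and colour limits at -3 and 3. The *DDB2* row is blue and the *BTG2* row red in all palbociclib columns, from -3.09 to -1.38 and from 2.17 to 2.73, and the NALM-6 palbociclib column holds the most values past 1.5-fold lower.

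**Figure D2:**
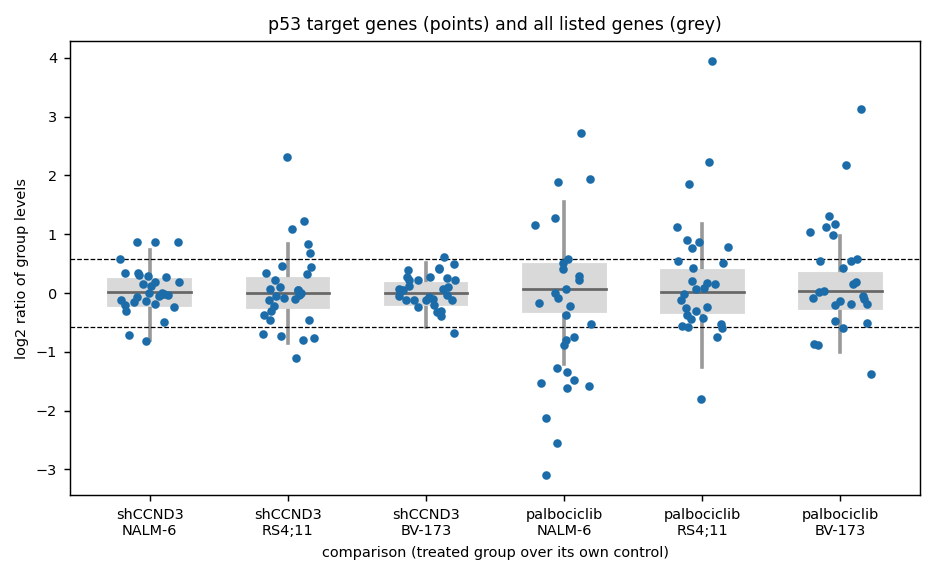
Log2 ratios of group levels in each comparison, with p53 target genes as points, all listed genes as a grey box from the 25th to the 75th percentile with their median and a line from the 5th to the 95th, and dashed lines at 1.5-fold. In the NALM-6 palbociclib column 12 points lie below the lower dashed line and 5 above the upper one.

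Of the 5 genes that feed back on p53, *PPM1D*, *FBXO22* and *CCNG1* fell with palbociclib, beside 12.8% of all genes. The others did not pass the test. With shCCND3 no gene passed it by limma, and 1 of 5 had an unadjusted p under 0.05, beside 3212 of 13877 genes. *MDM2* (chr12:68808172-68850686), the ligase that marks p53 for degradation, was at 2651 or more in every group. It was 3716 and 4704 in NALM-6, 2651 and 2844 in RS4;11 and 4908 and 3759 in BV-173 with the scrambled shRNA and shCCND3, respectively. With DMSO and palbociclib it was 5572 and 4774, then 3216 and 4589, then 6837 and 4798, line by line. *MDM2* was thus higher than its control in NALM-6 and RS4;11 with shCCND3 and in RS4;11 alone with palbociclib, and lower in the other groups, with no difference reaching 1.5-fold. Its mean log2 ratio was 0.02 ± 0.37 with shCCND3 (SD, n = 3 lines, 95% interval -0.32 to 0.35, limma adjusted p = 0.956) and -0.07 ± 0.53 with palbociclib (95% interval -0.58 to 0.43, adjusted p = 0.837).

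*PPM1D* (chr17:60600193-60666280) encodes the phosphatase WIP1, which removes activating phosphates from p53 and its upstream kinases. With DMSO and palbociclib its level was 1263 and 756 in NALM-6, 774 and 464 in RS4;11 and 711 and 386 in BV-173. Levels of different lines were scaled separately, so their order is set side by side only. All palbociclib levels were lower than all DMSO levels except that NALM-6 with palbociclib (756) exceeded BV-173 with DMSO (711). *PPM1D* fell with palbociclib with a mean log2 ratio of -0.79 ± 0.08 (SD, n = 3 lines, limma adjusted p = 0.0174), with the smallest spread over lines among the 7 genes that fell. In the shRNA groups it was 1148 and 1030, then 901 and 556, then 766 and 616, lower in each line and past 1.5-fold in RS4;11 alone (mean -0.39 ± 0.28, adjusted p = 0.150).

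*CCNG1*, which encodes cyclin G1, a partner of the phosphatase PP2A that acts on MDM2, had the highest level per kilobase of transcript of all 31 genes in each control group, between 1637 and 3541 per kb. With DMSO and palbociclib its level was 8757 and 3150 in NALM-6, 4395 and 3048 in RS4;11 and 4431 and 3827 in BV-173, lower in each line and most in NALM-6. In the shRNA groups it was 4029 and 3916, then 4290 and 4459, then 4300 and 5164. *CCNG1* fell with palbociclib (mean log2 ratio -0.74 ± 0.66, SD, n = 3 lines, limma adjusted p = 0.0954), a call that was lost without NALM-6 (mean -0.37, adjusted p = 0.199). With shCCND3 the mean was 0.09 ± 0.16 (adjusted p = 0.650).

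*FBXO22*, the substrate receptor of a ubiquitin ligase that acts on methylated p53, had palbociclib log2 ratios of -0.79, -0.60 and -0.19 line by line. It fell over the lines (mean -0.53 ± 0.31, SD, n = 3 lines, limma adjusted p = 0.0850), but not without NALM-6 (mean -0.40, adjusted p = 0.273) or without RS4;11 (-0.49, 0.250). *RPS27L*, a ribosomal protein paralog that binds MDM2, was 868 and 284, then 1254 and 969, then 221 and 206 with DMSO and palbociclib. The difference was past 1.5-fold in NALM-6 alone, and the mean of -0.70 ± 0.81 was not past the test (limma adjusted p = 0.171). With shCCND3 its ratios were -0.20, -0.46 and 0.39. *RPS27L* resembles *RPS27* in sequence, and reads that fit both could be split between them by the authors' estimates.

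Of the 5 DNA repair genes, *DDB2* and *POLH* fell with palbociclib and *POLH* fell with shCCND3, beside 12.8% and 6.70% of all genes. The others did not pass the test. All 5 mean ratios were below 0 with shCCND3, beside 6853 of 13877 genes, and 4 of 5 with palbociclib, beside 6343 of 13788. *DDB2* (chr11:47214454-47239217) encodes the damage-binding subunit that starts nucleotide excision repair of ultraviolet lesions, and its window held the match with 0 mismatches shown above. Its level was 2695 and 316 in NALM-6, 1844 and 527 in RS4;11 and 979.9 and 375 in BV-173 with DMSO and palbociclib. Set side by side across lines, whose levels were scaled separately, every palbociclib level was below every DMSO level. The order of the lines was changed, since NALM-6 was highest with DMSO and lowest with palbociclib. The differences were 8.52-, 3.50- and 2.61-fold in that order of lines. *DDB2* fell with a mean log2 ratio of -2.09 ± 0.89 (SD, n = 3 lines, limma adjusted p = 0.0133).

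In the shRNA groups, scrambled first, *DDB2* was 1399 and 795, then 2058 and 960.3, then 1083 and 1056. NALM-6 and RS4;11 were lower with shCCND3 by 1.76-fold and 2.14-fold, whereas BV-173 differed by 1.03-fold. The mean of -0.65 ± 0.55 lay at the edge of the threshold (limma adjusted p = 0.1005). The palbociclib log2 ratio of *DDB2* less that of shCCND3 was -1.44 ± 0.79 (SD, n = 3 lines, adjusted p = 0.0323).

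*POLH* (chr6:43576185-43620523), the translesion polymerase eta that copies past ultraviolet lesions, was 1999 and 1222 in NALM-6, 1423 and 818 in RS4;11 and 936 and 581 in BV-173 with the scrambled shRNA and shCCND3. Its level was lower with shCCND3 by nearly equal ratios, 1.64-, 1.74- and 1.61-fold in that order of lines. *POLH* was the sole p53 target gene that fell over the lines with shCCND3 (mean log2 ratio -0.73 ± 0.06, SD, n = 3 lines, limma adjusted p = 0.0209). Its levels with DMSO and palbociclib were 2950 and 1019, then 1510 and 1010, then 1080 and 714, and it fell there too (mean -0.90 ± 0.55, adjusted p = 0.0416). The difference between treatments was -0.17 ± 0.57 (95% interval -0.66 to 0.31, adjusted p = 0.653).

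*XPC*, the lesion sensor of nucleotide excision repair, was past 1.5-fold in NALM-6 with palbociclib alone, at 818 with DMSO and 444 with palbociclib, and was 1.34-fold higher in RS4;11. *RRM2B*, a ribonucleotide reductase subunit, and *ASCC3*, a helicase of alkylation repair, stayed within 1.5-fold in all 6 comparisons. *ASCC3* was nevertheless below its control in each of them, with log2 ratios from -0.44 to -0.08, and neither mean passed the test (limma adjusted p = 0.225 with shCCND3 and 0.171 with palbociclib).

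Among the 7 genes of the cell cycle and growth, *BTG2*, *SERTAD1* and *ZMAT3* rose with palbociclib, of 6 tested, beside 10.6% of all genes. *ZMAT3* rose with shCCND3, beside 4.29% of all genes. *BTG2* (chr1:203305519-203309602), an antiproliferative cofactor of mRNA deadenylation, was 1791 and 11875 in NALM-6, 348 and 1626 in RS4;11 and 227 and 1023 in BV-173 with DMSO and palbociclib. Each line had more *BTG2* with palbociclib, by 6.63-, 4.67- and 4.50-fold in that order of lines. It rose with a mean log2 ratio of 2.37 ± 0.31 (SD, n = 3 lines, limma adjusted p = 0.00720). In the shRNA groups it was 3801 and 4229, then 1182 and 2106, then 279.96 and 326, higher in each line but past 1.5-fold in RS4;11 alone (mean 0.40 ± 0.38, adjusted p = 0.170). The excess of palbociclib over shCCND3 was 1.97 ± 0.59 (SD, n = 3 lines, adjusted p = 0.00861).

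*ZMAT3*, an RNA-binding zinc finger protein that regulates splicing, was 1748 and 3201, then 1704 and 2329, then 794 and 964 with the scrambled shRNA and shCCND3. It rose with shCCND3 (mean log2 ratio 0.53 ± 0.30, SD, n = 3 lines, limma adjusted p = 0.0647) and with palbociclib (mean 0.80 ± 0.49, adjusted p = 0.0487). The lines ranked differently, since NALM-6 had the largest ratio with shCCND3 (0.87) and the smallest with palbociclib (0.23). The palbociclib call was lost without RS4;11 (adjusted p = 0.129) and without BV-173 (0.145).

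*SERTAD1*, a regulator of CDK4 and of E2F transcription, had palbociclib log2 ratios of 1.16, 0.86 and 0.58 line by line. It rose over the lines (mean 0.87 ± 0.29, SD, n = 3 lines, limma adjusted p = 0.0794), a call lost on leaving out any of the 3 lines (adjusted p from 0.140 to 0.227). *PLK3*, a stress-responsive polo-like kinase, was past 1.5-fold only with shCCND3 in BV-173, at 229 and 348. *FBXW7*, a substrate receptor that targets cyclin E for degradation, had ratios between -0.31 and 0.19. *PLK2*, another polo-like kinase, was listed in 3 comparisons, with levels of 279 and 289 under shCCND3 and 116 and 98.6 under palbociclib in RS4;11, and below 1 in BV-173.

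*GDF15*, a secreted stress cytokine, was scarce throughout. It was 26.1 and 18.5 in NALM-6, 10.2 and 24.0 in RS4;11 and 1.81 and 1.88 in BV-173 with the scrambled shRNA and shCCND3. Its levels with DMSO and palbociclib were 13.7 and 3.17, then 2.36 and 2.64, then 1.54 and 2.06. It was 2.34-fold higher with shCCND3 in RS4;11 and 4.34-fold lower with palbociclib in NALM-6, and the means did not pass the test (limma adjusted p = 0.683 and 0.538, with SDs over lines of 0.88 and 1.40).

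Of the 6 cell death genes, *TP53INP1* rose and *FAS* and *AEN* fell with palbociclib, of 5 tested, beside 10.6% and 12.8% of all genes. With shCCND3 no gene passed the test by limma, and 1 of 6 had an unadjusted p under 0.05, beside 3212 of 13877 genes. The rise of *TP53INP1* was the largest mean change of the 28 genes. *TP53INP1*, a stress protein that promotes p53 phosphorylation and autophagy-linked death, was 605 and 2250 in NALM-6, 34.7 and 532 in RS4;11 and 29.5 and 257 in BV-173 with DMSO and palbociclib. The rise was 3.72-, 15.3- and 8.73-fold in that order of lines. RS4;11 and BV-173 started from far lower levels than NALM-6, on scales set separately for each line. Its mean log2 ratio was 2.99 ± 1.03 (SD, n = 3 lines, limma adjusted p = 0.00969). In the shRNA groups it was 368 and 672, then 62.5 and 309, then 100.02 and 92.3, so that it was higher in NALM-6 and RS4;11 and 1.08-fold lower in BV-173 (mean 1.02 ± 1.22, adjusted p = 0.184). The excess of palbociclib over shCCND3 was 1.97 ± 1.15 (adjusted p = 0.0401).

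*FAS* (chr10:88964050-89017059), the death receptor for FAS ligand, was 303 and 51.5 in NALM-6, 312 and 211 in RS4;11 and 82.9 and 45.5 in BV-173 with DMSO and palbociclib. All lines were lower with palbociclib, by 5.88-, 1.48- and 1.82-fold in that order of lines. Set side by side across lines, which were scaled separately, NALM-6 was near RS4;11 with DMSO and near BV-173 with palbociclib. *FAS* fell over the lines (mean log2 ratio -1.33 ± 1.07, SD, n = 3 lines, limma adjusted p = 0.0836), but not without NALM-6 (mean -0.72, adjusted p = 0.197) or without BV-173 (-1.56, 0.130). Its levels with the scrambled shRNA and shCCND3 were 171 and 163, then 321 and 248, then 69.1 and 75.3, and the mean was -0.11 ± 0.25 (adjusted p = 0.795).

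*AEN*, a nuclease that degrades DNA in apoptosis, had log2 ratios of -1.27, -0.43 and -0.47 with palbociclib in the order of lines. It fell over the lines (mean -0.72 ± 0.48, SD, n = 3 lines, limma adjusted p = 0.0600), a call lost without NALM-6 (mean -0.45, adjusted p = 0.157). *PHLDA3*, an inhibitor of the survival kinase AKT, was 89.1 and 89.1 in NALM-6 and 231 and 139 in RS4;11 with the scrambled shRNA and shCCND3, and below 1 in BV-173. With palbociclib it was 106 and 35.5 in NALM-6, a 3.00-fold lower level, and 136 and 142 in RS4;11. *SUSD6*, a membrane protein linked to the p53 death response, was 2.43-fold higher with palbociclib in NALM-6 and within 1.5-fold elsewhere. *TRIAP1*, a mitochondrial lipid transfer protein that restrains apoptosis, had ratios between -0.01 and 0.54.

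Of the 8 genes of metabolism and mitochondria, *TP53I3*, *NADSYN1* and *TIGAR* rose with palbociclib, of 7 tested, beside 10.6% of all genes. *NADSYN1* and *SESN1* rose with shCCND3, beside 4.29% of all genes. Mean ratios were above 0 for 6 of 8 with shCCND3, beside 7024 of 13877 genes. With palbociclib they were above 0 for 5 of 7, beside 7445 of 13788. *TP53I3* (chr2:24077433-24084834), a quinone oxidoreductase also known as PIG3, was 63.9 and 246 in NALM-6, 113 and 406 in RS4;11 and 62.5 and 155 in BV-173 with DMSO and palbociclib. Each line was higher, by 3.85-, 3.60- and 2.47-fold in that order of lines. Its mean log2 ratio was 1.70 ± 0.34 (SD, n = 3 lines, limma adjusted p = 0.0121). Its levels with the scrambled shRNA and shCCND3 were 107 and 196, then 123 and 263, then 48.2 and 46.1, which again left BV-173 apart from the other lines (mean 0.63 ± 0.62, adjusted p = 0.200). The excess of palbociclib over shCCND3 was 1.07 ± 0.31 (adjusted p = 0.0530), and that call was lost on leaving out any of the 3 lines (adjusted p from 0.102 to 0.177).

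*TIGAR*, which lowers glycolysis and feeds the pentose phosphate pathway, had palbociclib log2 ratios of 0.51, 0.79 and 1.17 and rose over the lines (mean 0.82 ± 0.33, SD, n = 3 lines, limma adjusted p = 0.0258). With shCCND3 the ratios were 0.34, 0.21 and 0.49 (adjusted p = 0.127). *NADSYN1*, the last enzyme of NAD synthesis, was higher in all 6 comparisons and rose with shCCND3 (mean 0.39 ± 0.09, adjusted p = 0.0762) and with palbociclib (mean 0.77 ± 0.20, adjusted p = 0.0185). *SESN1*, an inhibitor of mTORC1 that senses amino acids, rose with shCCND3 (mean 0.47 ± 0.19, adjusted p = 0.0892). With palbociclib *SESN1* was 1.87-fold and 2.18-fold higher in RS4;11 and BV-173 and 1.12-fold lower in NALM-6 (adjusted p = 0.164).

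*FDXR*, the mitochondrial ferredoxin reductase, was 2.52-fold lower with palbociclib in NALM-6, at 538 and 213, and within 1.5-fold in the other 5 comparisons. *BLOC1S2*, a subunit of a lysosome-related organelle complex, and *CMBL*, a hydrolase, stayed within 1.5-fold in all 6. *SPATA18*, a regulator of mitochondrial quality, was listed with shCCND3 only, at levels of 0.158 to 0.453.

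**Figure D3:**
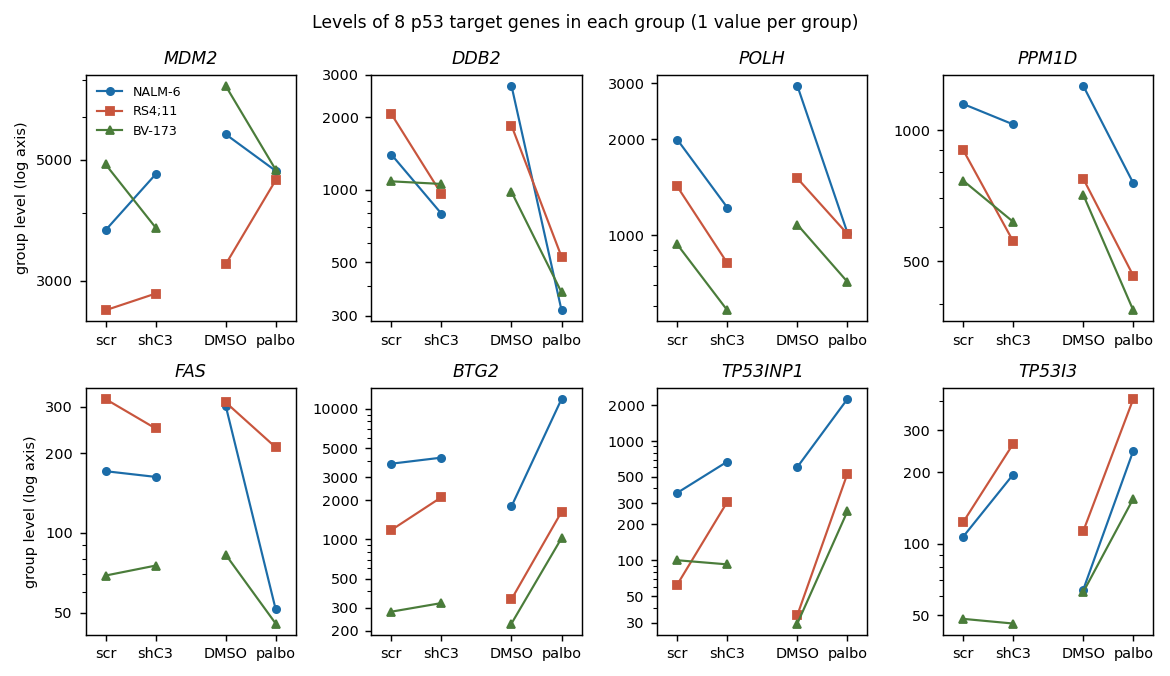
Group levels (log axis, 1 value per group, scaled separately for each pair of groups) of 8 p53 target genes in NALM-6 (circles), RS4;11 (squares) and BV-173 (triangles), with lines joining each control to its treated group (scr, scrambled shRNA; shC3, shCCND3; palbo, palbociclib). *DDB2*, *POLH*, *PPM1D* and *FAS* slope downward from DMSO to palbociclib in all lines, *BTG2*, *TP53INP1* and *TP53I3* slope upward, and *MDM2* slopes upward in RS4;11 alone.

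Some genes lay close to the 1.5-fold mark. Just past it were *POLH* with palbociclib in BV-173 (1.51-fold lower), *FBXO22* with palbociclib in RS4;11 (1.52-fold lower) and *PLK3* with shCCND3 in BV-173 (1.52-fold higher). Just short of it were *POLH* with palbociclib in RS4;11 (log2 ratio -0.58, against 0.585 at the mark), *NADSYN1* with palbociclib in NALM-6 (1.49-fold higher) and *SUSD6* with shCCND3 in NALM-6 (1.49-fold higher).

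The treatments were compared within each line by taking the palbociclib log2 ratio less that of shCCND3. Of 28 genes, *BTG2*, *TP53INP1* and *TP53I3* were higher and *DDB2* and *CCNG1* lower with palbociclib past the test, when 4.19% of 13307 genes were higher and 7.15% lower. *CCNG1* differed by -0.83 ± 0.53 (SD, n = 3 lines, limma adjusted p = 0.0558), which was lost without NALM-6 (adjusted p = 0.110). Without a trend of variance on level in the fit, none of the 5 differences was past the threshold (adjusted p from 0.107 to 0.177), while 9 of the 28 genes had an unadjusted p under 0.05. The share of all genes at that unadjusted p is not given here, so the count is not a result about the p53 target genes. Across the 28 genes, the ratios under both treatments had a Spearman correlation of 0.725, 0.869 and 0.438 in the order of lines, where all 13307 genes gave 0.568, 0.707 and 0.433. These are correlations across genes, which are not independent replicates, and the treatments of a line had separate controls.

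**Figure D4:**
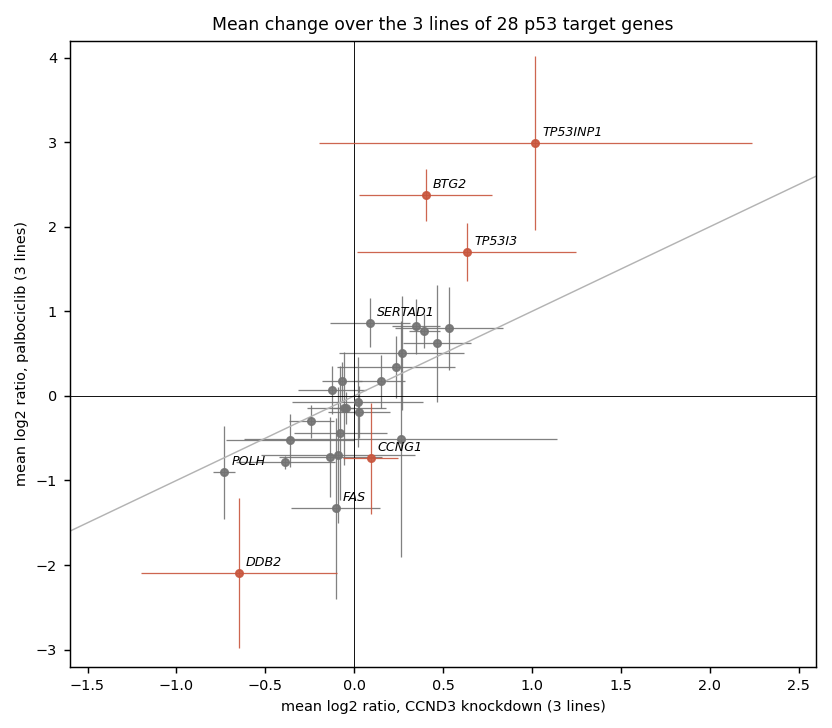
Mean log2 ratio over the 3 lines under shCCND3 (x axis) and palbociclib (y axis) of the 28 p53 target genes listed in all comparisons, with bars of 1 SD over lines, a grey line where both are equal, and red points where the treatments differed by limma at an adjusted p under 0.1. *TP53INP1*, *BTG2* and *TP53I3* lie above the line of equality and *DDB2* and *CCNG1* below it.

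The control levels of these genes also differed, that is, between transduced, sorted cells on day 4 and DMSO cells on day 3, whose levels were scaled in separate comparisons and are set side by side only. In NALM-6, *CCNG1*, *DDB2*, *FAS*, *TP53INP1* and *FDXR* were at least 1.5-fold higher with DMSO than with the scrambled shRNA, and *BTG2*, *SERTAD1*, *GDF15*, *TP53I3* and *CMBL* lower, of 29 genes and beside 6.80% and 18.3% of all genes. For *DDB2* the NALM-6 levels were 1399 with the scrambled shRNA and 2695 with DMSO, and for *BTG2* 3801 and 1791. In RS4;11, 0 of 30 were higher and 7 lower (*BTG2*, *PLK2*, *SERTAD1*, *GDF15*, *ZMAT3*, *PHLDA3* and *TP53INP1*), beside 6.20% and 12.3%. In BV-173, 0 of 28 were higher and 4 lower (*RPS27L*, *SERTAD1*, *ZMAT3* and *TP53INP1*), beside 10.6% and 10.3%. Transduction, sorting, vehicle and day cannot be told apart in this difference.

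The regulators of p53 gave counts of their own. *MDM4*, the partner of MDM2 that blocks p53's activation domain, was 1662 and 943, then 829 and 579, then 1901 and 1342 with DMSO and palbociclib and fell (mean log2 ratio -0.61 ± 0.18, SD, n = 3 lines, limma adjusted p = 0.0324). With shCCND3 its ratios were -0.08, -0.16 and -0.61 (adjusted p = 0.252). Of 15 regulators, 1 rose (*ATM*) and 5 fell with palbociclib (*MDM4*, *CHEK1*, *CHEK2*, *USP7* and *SIRT1*), and 0 rose and 1 fell (*CHEK1*) with shCCND3. With shCCND3, 2 of the 15 had an unadjusted p under 0.05 by limma, beside 3212 of 13877 genes. Of all genes, 10.6% rose and 12.8% fell with palbociclib, and 4.29% rose and 6.70% fell with shCCND3. The fall of *MDM4* was lost without NALM-6 (adjusted p = 0.116), that of *USP7* without RS4;11 (0.112), that of *SIRT1* without NALM-6 and without BV-173 (0.106 and 0.152), and the rise of *ATM* on leaving out any of the lines (from 0.117 to 0.289). Without the trend, the calls of *SIRT1* and *ATM* were lost as well (0.116 and 0.137). *CHEK1*, the checkpoint kinase, had mean ratios of -1.26 ± 0.64 with shCCND3 and -2.99 ± 0.87 with palbociclib.

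Among 20 other p53 target genes, the CDK inhibitor gene *CDKN1A* was 7393 and 2877 in NALM-6, 5793 and 4220 in RS4;11 and 1696 and 1530 in BV-173 with DMSO and palbociclib. Its levels with the scrambled shRNA and shCCND3 were 7393 and 7813, then 8715 and 5059, then 1531 and 1623. It was lower in every line with palbociclib and in RS4;11 with shCCND3, and neither mean passed the test (-0.66 ± 0.63, limma adjusted p = 0.114, and -0.21 ± 0.50, adjusted p = 0.539, SD, n = 3 lines). *BAX*, a pore-forming death effector, was 906 and 447, then 804 and 734, then 1031 and 1358 with DMSO and palbociclib (adjusted p = 0.552) and had ratios of -0.15, -0.28 and 0.28 with shCCND3 (adjusted p = 0.879).

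The BH3-only death genes *BBC3* (PUMA) and *PMAIP1* (NOXA) fell with palbociclib. *BBC3* was 320.2 and 126 in NALM-6, 426 and 326 in RS4;11 and 439 and 252 in BV-173 with DMSO and palbociclib (mean log2 ratio -0.84 ± 0.48, SD, n = 3 lines, limma adjusted p = 0.0615). It was 175 and 234, then 496 and 606, then 272 and 345 with the scrambled shRNA and shCCND3, higher in each line within 1.5-fold (mean 0.35 ± 0.06, adjusted p = 0.197), and the treatments differed by -1.19 ± 0.54 (adjusted p = 0.0380). *PMAIP1* was 2143 and 1184, then 2663 and 1037, then 1667 and 1158 with DMSO and palbociclib (mean -0.91 ± 0.42, adjusted p = 0.0242), and its ratios with shCCND3 were -0.22, -0.75 and 0.18. The treatments differed for *PMAIP1* by nearly the same amount in each line, -0.65 ± 0.05 (SD, n = 3 lines, adjusted p = 0.0217). The fall of *BBC3* was lost without NALM-6 (adjusted p = 0.199) and without BV-173 (0.142), and its difference between treatments without NALM-6 (0.137), whereas the calls of *PMAIP1* held with each line left out. Without the trend, both differences were lost (0.137 for *BBC3* and 0.134 for *PMAIP1*).

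In the whole list of 20, 2 genes rose (*CD82* and *BTG1*) and 5 fell (*BBC3*, *PMAIP1*, *SESN2*, *APAF1* and *PIDD1*) of 19 tested with palbociclib, and 2 rose (*TP53I11* and *BTG1*) and 1 fell (*PIDD1*) of 20 with shCCND3, beside the same shares of all genes, 10.6% and 12.8% with palbociclib and 4.29% and 6.70% with shCCND3. *CD82*, a tetraspanin, was 129 and 789, then 65.9 and 299, then 11.3 and 17.2 with DMSO and palbociclib. Its rise was lost without NALM-6 (limma adjusted p = 0.132). With palbociclib, the call of *APAF1* was lost on leaving out any of the lines (adjusted p from 0.117 to 0.206), and that of *BTG1* without RS4;11 and without BV-173 (0.152 and 0.143). With shCCND3, the calls of *TP53I11*, *PIDD1* and *BTG1* were lost without RS4;11 (0.178, 0.293 and 0.349), and that of *BTG1* also without BV-173 (0.133). Without the trend, the palbociclib calls of *APAF1* and *BTG1* (both 0.115) and the knockdown calls of *PIDD1* (0.140) and *BTG1* (0.146) were lost, that of *PIDD1* also with a pseudocount of 1 (0.105). The median of the mean ratios was -0.07 under either treatment, beside 0.04 and 0.00 over all genes with palbociclib and shCCND3. The 10 genes listed as targets that p53 lowers through p21 and DREAM, such as *CDK1*, *CCNB1* and *PLK1*, all fell under both treatments. That list was chosen with earlier results of these data known, so its counts are descriptive. A part of p53 or p21 in these falls was not tested. The medians of their mean ratios were -1.10 with shCCND3 and -3.44 with palbociclib. All 10 were lower with palbociclib than with shCCND3 past the test (median difference -2.34), beside 7.15% of all genes. The knockdown difference was smallest for BV-173, where 2 of the 10 were at least 1.5-fold lower (median -0.47), beside 4.78% of all genes. All 10 passed that mark with shCCND3 for RS4;11 (median -1.54, beside 9.72%) and for NALM-6 (median -1.27, beside 8.47%). With palbociclib all 10 passed it in every line. Without RS4;11 the knockdown calls of *CDC25C*, *PLK1*, *BIRC5* and *AURKA* were lost (adjusted p from 0.108 to 0.206), and without the trend none of the 10 differences between treatments was past the threshold by limma (adjusted p from 0.109 to 0.192).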

How the data were processed

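RNA of 34 samples of 3 established B-ALL lines was sequenced after poly(A) enrichment. The authors' pipeline was SOAPnuke for read filtering, Bowtie2 for alignment (hg38), RSEM for expression estimates and DESeq2 for each pair of groups, in versions not given in the sources used here. Their 6 deposited tables hold, as a signal, 1 normalised level per group, scaled within the pair, and no value per sample, and 0 per-sample columns were left out. The tables also hold the authors' own fold changes, p-values and calls, which were not used. No gene was at a level of 0.

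Log2 ratios of the 2 levels were computed with no pseudocount. Changes shared by the lines were tested with limma 3.58.1 (R 4.3.3; intercept fit of 3 ratios per gene, eBayes with a trend on mean log2 level, Benjamini-Hochberg over all genes, threshold 0.1). On simulated data for palbociclib with 200 of 11503 genes shifted, 44.0% of shifts by 1 and 75.0% of shifts by 2 on the log2 scale were called, and 1.65% of calls were unshifted genes. The simulated ratios were independent normal draws, with scarce genes left out and each shift equal in all lines. In the data 10.6% of genes rose and 12.8% fell with palbociclib, so these rates are not those of the results above. Python 3.11.15 with pandas 2.3.3 and numpy 2.4.6 served for the rest. Gene positions and promoter windows are those of RefSeq (GRCh38.p14), matched by gene identifier for all 31 genes or by symbol.

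The 31 genes and all gene lists were chosen with earlier results of these data known. Full levels were given by rule for *MDM2*, for genes past 1.5-fold in the same direction in all 3 lines of a treatment, for the 5 with the largest difference between treatments and for the 5 with the largest SD over lines in each treatment, and by value for *CCND3*, *MDM4*, *CDKN1A*, *BAX*, *BBC3* and *PMAIP1*. Other levels and names, such as those of *CCNG1*, *ZMAT3*, *CHEK1* and *CD82*, were chosen after the values were seen. Alternatives were a 2-fold mark, a pseudocount of 1, a mean level of at least 10, centring on the median of all genes, an adjusted p under 0.05, no trend, and leaving out each line. The values of 1 regulator are not reported here.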

Additional observations from a re-analysis of the deposited data

How the results depend on the processing

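Of 114 counts and medians recomputed under alternatives, 89 stayed within 1.5 times the count given or within the spread, and of 161 mean ratios of single genes recomputed, 123 kept their direction and their side of the threshold, 38 kept their direction and lost the threshold, and 0 reversed. At a 2-fold mark, 0 p53 target genes upward and 0 downward were past it with shCCND3 in NALM-6 (2.28% and 3.08% of all genes). The same held in BV-173 (0.447% and 0.488%), and 3 upward and 1 downward were past it in RS4;11 (3.15% and 3.91%). With palbociclib, 4 upward and 1 downward were past it in RS4;11 (7.13% and 7.07%), 6 and 1 in BV-173 (4.76% and 4.98%), and 5 and 9 in NALM-6 (11.4% and 6.87%). With shCCND3, the 3 genes that rose over the lines became 0 at an adjusted p under 0.05, 0 without the trend, 0 without NALM-6, 0 without RS4;11 and 5 without BV-173. In these fits by limma, between 3 and 12 genes in either direction had an unadjusted p under 0.05, counts given without the shares of all genes. The gene that fell became 2 with a mean level of at least 10, 2 after centring and 2 without BV-173. All-gene counts of these fits with shCCND3 are not given here. Whether these shifts are particular to the p53 target genes was therefore not tested. With palbociclib, the 7 genes that fell became 3 at an adjusted p under 0.05, 3 without the trend and 3 without NALM-6. The all-gene count without the trend is likewise not given here for palbociclib. For the difference between treatments, the 3 higher genes became 0 without the trend, and the 2 lower genes became 1 at an adjusted p under 0.05, 0 without the trend (9 genes at an unadjusted p under 0.05 in limma, given without the share of all genes), 1 without NALM-6 and 4 without RS4;11. The fits on a pair of lines rest on fewer samples, and the cause of the other changes was not tested.

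Over all genes, calls higher and lower were 595 and 930 with shCCND3, against 248 and 516 without the trend, 215 and 523 at an adjusted p under 0.05, 237 and 477 without NALM-6, and 62 and 261 without RS4;11. With palbociclib they were 1463 and 1770, against 708 and 1170 at an adjusted p under 0.05, 798 and 1130 without NALM-6, 788 and 1017 without RS4;11, and 973 and 1390 without BV-173. For the difference they were 558 and 952, against 23 and 47 without the trend, 166 and 466 at an adjusted p under 0.05, 102 and 375 without NALM-6, 275 and 508 without RS4;11, and 349 and 631 without BV-173. No paired analysis was possible because the tables hold 1 value per group, and for the same reason no replicate could be left out. Depth per sample is unknown, so no interval for counting error was given.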

Other observations

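Genes of the ATF4 stress response, some of which are also listed elsewhere as p53 targets, changed in these lines too. Their list was chosen with earlier results of these data known, so its counts are descriptive. With palbociclib 6 of 8 fell over the lines (*ATF4*, *DDIT3*, *TRIB3*, *CHAC1*, *ATF3* and *PSAT1*) and 0 rose, beside 12.8% and 10.6% of all genes, with a median of the 8 mean log2 ratios of -1.90. By limma, the 6 that fell were also the 6 with an unadjusted p under 0.05, beside 4378 of 13788 genes. The levels of *ATF4*, which encodes the transcription factor of this response, were 13924 with DMSO and 6863 with palbociclib in NALM-6, 13877 and 6545 in RS4;11, and 17433 and 8763 in BV-173, close to the same ratio in each line (mean -1.03 ± 0.05, SD, n = 3 lines, limma adjusted p = 0.00975). *DDIT3*, the stress factor CHOP, had a mean of -1.94 ± 0.37 (limma adjusted p = 0.00720). With shCCND3, 1 of the 8 genes fell, beside 6.70% of all genes (*PSAT1*, an enzyme of serine synthesis, mean -0.75 ± 0.54, adjusted p = 0.0619), and *ATF4* had a mean of -0.01 ± 0.15 (adjusted p = 0.966). At the 1.5-fold mark, RS4;11 had 5 of the 8 lower and 1 higher with shCCND3 (9.72% and 9.73% of all genes). The median log2 ratio there was -0.68. For NALM-6, shCCND3 left 3 lower and 0 higher (8.47% and 7.82% of all genes), with a median of -0.55. BV-173 had 0 past the mark either way (4.78% and 3.32%), with a median of 0.14. The knockdown call of *PSAT1* was lost without NALM-6 (adjusted p = 0.139) and without RS4;11 (0.288), and that of *CHAC1* with palbociclib without BV-173 (0.122). Without the trend both were lost (0.141 and 0.117), and that of *PSAT1* also with a pseudocount of 1 (0.1005).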
